A study of Homo sapiens with 2 samples.

Results

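Complement components and complement regulators were followed in TFK1 cells, an established human cholangiocarcinoma (CCA) line, with and without knockdown of MBD2. The group holds 9 genes of the 56638 in the deposited tables, which are C3, CFB, CFI, C1R, C1S, SERPING1, CD46, CD55 and CD59. Total RNA was sequenced from cells with the negative control (sh-NC) and from cells with the knockdown of MBD2 (shMBD2), with 1 library per condition, and both are listed as otherwise untreated. The study infected the cells with lentivirus made from a plko.1 shRNA vector and selected them with drug, so both libraries come from infected and selected cells of the same line, and the labels do not say which of the MBD2 shRNAs was used. The 9 genes were chosen by symbol with the difference between these libraries already known, so every difference below is a description and none is tested. With a single library on each side there is no replicate error, and the intervals given are 95% intervals of counting error only.

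Complement is a cascade of plasma and cell surface proteins that marks microbes and damaged cells. The classical pathway starts when C1q binds, its protease C1r activates C1s, and C1s cleaves C4 and C2. The alternative pathway starts from C3 itself, to which factor B binds before factor D cleaves it, and all routes meet in the cleavage of C3, after which C5 to C9 can form a pore in the membrane. Host cells are protected by soluble inhibitors (such as C1 inhibitor and factor I) and by CD46, CD55 and CD59 on their own surface. The liver makes most plasma complement, and epithelial cells also make C3 and factor B, which are known to respond to inflammatory cytokines.

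The libraries held 14467406 counts (sh-NC) and 14728814 counts (shMBD2). MBD2, the knocked-down gene, had 1013 counts in sh-NC and 365 in shMBD2, or 44.6 and 15.6 TPM, a log2FC of -1.48 (interval -1.66 to -1.31). All log2FC values are shMBD2 over sh-NC on TMM-normalized counts with a prior of 0.5 counts. Of the 8 biliary epithelial markers examined, all had at least 10 counts, and KRT7 and KRT8 were abundant (1327 and 3890 TPM in sh-NC), while KRT19 stood at 9.04 TPM and EPCAM at 16.9 TPM.

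The sequence before a listed RefSeq start is shown first for 5 of the 9 genes. MBD2 is a protein that binds methylated CpG dinucleotides, so CpG are marked here as a description of sequence, and an action of MBD2 at these starts was not tested. Promoter sequences from RefSeq (GRCh38.p14) matched 6 of the 9 symbols, with 11 starts in all, while C3, C1S and SERPING1 were not matched. CD59 was matched at 4 starts that differ widely in CpG. Its sequences are not shown, and its CpG counts are given after the sequences. The 250 bases before the first listed start are given 5′ to 3′ on the gene's own strand, with every CpG in capitals. They lie at chr6:31945845-31946094 (plus strand) for CFB, chr4:109802000-109802249 (minus) for CFI, chr12:7092446-7092695 (minus) for C1R, chr1:207321428-207321677 (plus) for CD55 and chr1:207751788-207752037 (plus) for CD46. These starts differ from the ends of the GENCODE 29 gene spans given below. By those spans the CFB and CD55 windows lie inside the gene, those of CFI and C1R partly inside, and that of CD46 before it.
CFB: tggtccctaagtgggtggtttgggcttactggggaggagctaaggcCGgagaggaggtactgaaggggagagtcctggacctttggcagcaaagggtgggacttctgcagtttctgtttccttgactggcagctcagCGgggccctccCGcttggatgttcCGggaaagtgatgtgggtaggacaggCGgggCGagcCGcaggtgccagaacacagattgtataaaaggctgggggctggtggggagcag
CFI: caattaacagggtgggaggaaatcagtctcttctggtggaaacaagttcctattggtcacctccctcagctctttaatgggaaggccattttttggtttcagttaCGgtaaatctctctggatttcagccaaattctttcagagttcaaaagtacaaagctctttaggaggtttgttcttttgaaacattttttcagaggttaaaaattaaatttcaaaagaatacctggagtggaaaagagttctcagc
C1R: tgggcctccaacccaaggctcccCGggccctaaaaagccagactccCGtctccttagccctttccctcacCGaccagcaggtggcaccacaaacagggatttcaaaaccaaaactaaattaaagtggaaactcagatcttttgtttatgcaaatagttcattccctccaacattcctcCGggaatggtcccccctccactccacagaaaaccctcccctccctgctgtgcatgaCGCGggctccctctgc
CD55: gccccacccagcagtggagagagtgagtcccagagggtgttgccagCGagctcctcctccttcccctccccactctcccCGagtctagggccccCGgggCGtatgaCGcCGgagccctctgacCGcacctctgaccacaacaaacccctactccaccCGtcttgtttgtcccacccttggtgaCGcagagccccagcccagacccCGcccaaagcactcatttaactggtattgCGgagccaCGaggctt
CD46: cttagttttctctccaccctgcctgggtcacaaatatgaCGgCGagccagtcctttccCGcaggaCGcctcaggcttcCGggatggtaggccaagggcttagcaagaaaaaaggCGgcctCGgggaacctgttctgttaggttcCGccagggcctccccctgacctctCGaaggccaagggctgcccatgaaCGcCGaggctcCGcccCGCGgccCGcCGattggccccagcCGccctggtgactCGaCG

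CFB, CFI and C1R were higher in the shMBD2 library (values below), and their windows held 7, 1 and 6 CpG. CD55 and CD46 differed little between the libraries, and their windows held 12 and 19 CpG. Over the full window, from 250 bases before to 50 after the start, CFB had 7 CpG, CFI 2 and C1R 10, or 8 at its other start. On the same window CD55 had 19 and CD46 had 25 at each of its 2 starts. CD59 had 18, 22, 1 and 1 CpG at its 4 starts, so it spans both ends of this range. The median of all 35116 promoters of this length was 14 CpG. Of these promoters, 36.8% had fewer than CFB, 11.0% fewer than CFI and 43.6% fewer than C1R (39.3% at its other start). The share was 57.1% for CD55, 68.0% for CD46 and from 3.96% to 62.3% over the starts of CD59. DNA methylation was not measured in these libraries, and no relation between CpG content and the difference was tested.

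**Figure D1:**
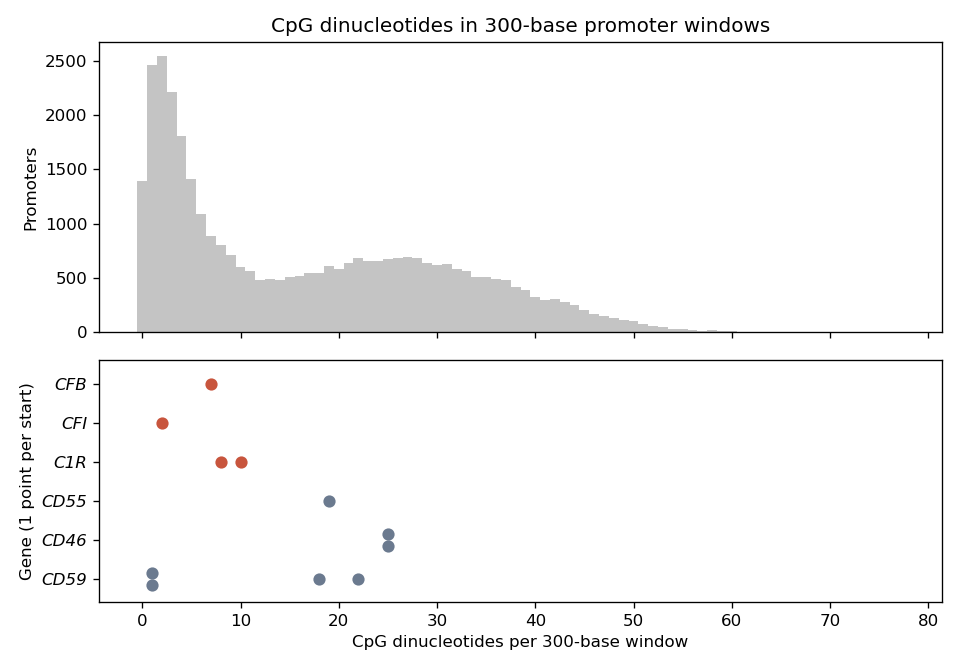
CpG dinucleotides per 300-base promoter window. The upper panel counts all 35116 promoters by their number of CpG, and the lower panel has 1 point for each start of the 6 matched genes, red for the genes at least 2-fold higher in the shMBD2 library. CFB, CFI and C1R lie between 2 and 10 CpG, CD55 and CD46 between 19 and 25, and the 4 starts of CD59 on both sides.

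The same windows were searched on both strands for 5 short motifs of factors known to act in inflammation, with positions counted from the start (-1 is the base just before it). CFB had a kappaB match, GGGGCCCTCC, beginning at -112. It also had a match to the STAT motif TTCNNNGAA, TTCCGGGAA, beginning at -92, and a match to the IRF motif AANNGAAA on the opposite strand, TTTCTGTT, beginning at -140. These 3 matches do not overlap. Among all promoters of this length, 11.3% held a kappaB match, 7.66% a STAT match and 22.8% an IRF match. CFI had 1 IRF match (TTTCAGTT, beginning at -154) and 2 matches to the C/EBP motif TTNNGNAA, which 36.8% of all promoters held. C1R had a STAT match (TTCCTGGAA, beginning at -86) at its other start and C/EBP matches at both starts. CD55 and CD46 had no match to any of the 5 motifs at any listed start. CD59 had STAT, IRF and C/EBP matches, and 3 matches to the AP-1 motif TGANTCA at 1 start, which 7.71% of all promoters held. A match describes these letters only and does not show that a factor binds.

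C3 and CFB, the pair from which the alternative pathway convertase is built, showed the widest differences of the group. C3, the central component of all pathways (ENSG00000125730, chromosome 19, 6677704 to 6730562, minus strand, GENCODE 29 on GRCh38), had 1162 counts in sh-NC and 13715 in shMBD2. Its level was 39.6 TPM in sh-NC and 456 TPM in shMBD2. In bulk RNA, more cells with a transcript and more of it per cell cannot be told apart. These levels placed C3 at rank 4069 of all genes by TPM in sh-NC and at rank 204 in shMBD2. The log2FC was 3.55 (interval 3.47 to 3.64), an 11.7-fold higher level. C3 overlaps GPR108 on the same strand in the deposited coordinates, and reads in the shared stretch could not be told apart.

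CFB, the serine protease factor B (ENSG00000243649, chromosome 6, 31945650 to 31952084, plus strand), was scarce in sh-NC and well measured in shMBD2. It had 69 counts in sh-NC and 1711 in shMBD2, or 3.20 and 77.2 TPM. The log2FC of CFB was 4.61 (interval 4.28 to 4.99), a 24.5-fold higher level and the widest of the 8 genes with at least 10 counts. CFB shares its locus with C2, another complement protease, which overlaps it on the same strand in the deposited coordinates. Reads in the shared stretch could not be told apart, and C2 itself had 2 counts in sh-NC and 1 in shMBD2. The CFB rows for alternative MHC haplotypes repeat the same values, and CFB was counted once.

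Set against all 17545 genes whose counts in both libraries came to at least 10, CFB ranked 31 and C3 ranked 66 from the highest log2FC. Of the 30 genes above CFB, 28 had fewer than 1000 counts, as had 58 of the 65 above C3. Among the 5864 genes with at least 1000 counts, CFB ranked 3 and C3 ranked 8. This minimum was set on the total of each gene. CFB reached it only through shMBD2 (69 counts in sh-NC and 1711 in shMBD2), so its rank here is not independent of its difference. C3 had 1162 counts in sh-NC alone. Of these 5864 genes, 1.06% were at least 2-fold higher in shMBD2. With no replicate, the share of this spread that separate cultures of 1 condition would show is unknown.

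The proteases of the classical pathway were higher by a smaller factor. C1S (ENSG00000182326, chromosome 12, 6988259 to 7071032, plus strand) encodes the protease that cleaves C4 and C2. It had 1199 counts in sh-NC and 2705 in shMBD2, at levels of 69.9 and 154 TPM. The log2FC of C1S was 1.16 (interval 1.07 to 1.26). C1R (ENSG00000159403, chromosome 12, 7080199 to 7092607, minus strand) encodes the protease that activates C1s. It had 205 and 536 counts, or 17.4 and 44.4 TPM, with a log2FC of 1.38 (interval 1.14 to 1.62).

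C1R and C1S are neighbors on opposite strands, and they kept nearly the same proportion to each other. The ratio of C1R to C1S in TPM was 0.249 in sh-NC and 0.289 in shMBD2, a 1.16-fold difference with an interval from 0.971 to 1.39 that includes no difference. C1RL, a protease of related sequence next to C1R, was not higher with them, with 806 counts in sh-NC and 783 in shMBD2 (log2FC -0.05, interval -0.19 to 0.09). In the deposited coordinates C1RL overlaps C1R on the same strand, and C1S overlaps EMG1 and LPCAT3, so reads in shared stretches are uncertain. EMG1 had 487 and 598 counts, and LPCAT3 had 614 and 686.

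The soluble inhibitors differed from each other in level. CFI (ENSG00000205403, chromosome 4, 109740694 to 109802179, minus strand) encodes factor I, the protease that inactivates C3b and C4b when a cofactor is present. It had 80 counts in sh-NC and 245 in shMBD2, or 6.07 and 18.1 TPM, with a log2FC of 1.60 (interval 1.24 to 1.99). SERPING1 (ENSG00000149131, chromosome 11, 57597387 to 57614853, plus strand), which encodes the C1 inhibitor that inactivates C1r and C1s, was close to absent from both libraries. It had 0 counts in sh-NC and 5 in shMBD2, listed as 0 and 0.392 TPM. With 3 counts set as a floor in sh-NC the ratio would be 1.66-fold. The interval of its log2FC begins at -0.13, so no difference was detectable at this depth. SERPING1 was below 10 counts in all and enters no count below.

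The 3 inhibitors anchored on the cell surface were abundant in both libraries. CD46 and CD55 differed little, and CD59 was 1.41-fold higher in shMBD2. CD46 (ENSG00000117335, chromosome 1, 207752057 to 207795513, plus strand), the cofactor with which factor I cleaves C3b, had 4803 counts in sh-NC and 5122 in shMBD2. Its level was 110 and 114 TPM, with a log2FC of 0.08 (interval 0.03 to 0.14). CD55 (ENSG00000196352, chromosome 1, 207321376 to 207386804, plus strand), which breaks up the C3 convertases, had 1354 and 1263 counts, or 88.0 and 80.0 TPM. For CD55 the log2FC was -0.11 (interval -0.22 to 0.00245), the only one of the 8 measured genes below 0.

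CD59 (ENSG00000085063, chromosome 11, 33703010 to 33736491, minus strand) blocks the last step, the insertion of C9 into the pore. It had 2276 counts in sh-NC and 3231 in shMBD2, or 110 and 152 TPM. The log2FC of 0.50 (interval 0.42 to 0.57) was a 1.41-fold higher level, the largest of the 3 surface inhibitors. Relative to CD55, CD59 was 1.52-fold higher in shMBD2 than in sh-NC (interval 1.38 to 1.67), and relative to CD46 it was 1.33-fold higher (interval 1.24 to 1.42). These ratios are formed inside each library and do not depend on how the libraries are scaled.

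Of the 8 genes with at least 10 counts, 5 were at least 2-fold higher in shMBD2 (C3, CFB, CFI, C1R and C1S) and 0 were at least 2-fold lower. Among all 17545 genes, 5.48% were at least 2-fold higher and 5.07% at least 2-fold lower. At 1.5-fold the counts were again 5 higher and 0 lower, where the shares of all genes were 11.0% and 10.9%. The genes were picked with this difference known, so nothing is read from these counts against the shares of all genes. By level in TPM, the order in sh-NC was CD46, CD59, CD55, C1S, C3, C1R, CFI, CFB and SERPING1. In shMBD2 it was C3, C1S, CD59, CD46, CD55, CFB, C1R, CFI and SERPING1. The neighbors CD46 and CD59 in sh-NC differed by 0.222 TPM, and C1S and CD59 in shMBD2 by 1.73 TPM, and with 1 library each the spread of either level is unknown.

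The make-up of the transcripts of the 9 genes differed between the 2 libraries. The summed TPM of the 9 genes was 444 in sh-NC and 1096 in shMBD2. C3 made up 8.92% of this sum in sh-NC and 41.6% in shMBD2, and CFB 0.719% and 7.05%. CD46, CD55 and CD59 together made up 69.3% and 31.6%, although their own summed TPM was 308 and 347. The 4 activating components C3, CFB, C1R and C1S summed to 130 TPM in sh-NC and 731 TPM in shMBD2. The 5 inhibitors among the 9 genes summed to 314 and 365 TPM. Soluble regulators listed outside the 9, mostly CLU, are not in these sums and went the other way, with 427 TPM in sh-NC and 299 TPM in shMBD2. These sums are of transcripts per length and give no measure of protein.

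The other genes of the cascade were taken from a list of 45 further components, regulators and receptors, of which 17 had at least 10 counts and 18 had none in either library. Of these 17 measured genes, 3 were at least 2-fold higher (CFP, COLEC11 and ITGAX), 2 at least 2-fold lower (C5 and C4A) and 12 lay between, where the shares of all genes were 5.48% higher and 5.07% lower. With log2 of TPM plus 1 in place of the counts, CFP, COLEC11, ITGAX and C4A lay inside 2-fold (0.54, 0.90, 0.76 and -0.43). The median log2FC of the 17 on the counts was -0.01, beside -0.01 over all genes tested. The highest log2FC among them was that of CFP at 2.14, below those of CFB and C3.

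C5, which is cleaved to the inflammatory peptide C5a and starts the membrane pore, had the higher counts of the 2 genes at least 2-fold lower. It had 1820 counts in sh-NC and 826 in shMBD2, and its log2FC was -1.15 (interval -1.27 to -1.03). C3 and C5 encode proteins of one family, and their TPM were in a ratio of 0.663 in sh-NC and 17.2 in shMBD2. The terminal components C6, C7, C8A, C8B and C9 had no counts in either library, and C8G had 2 and 3.

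CFD, the protease that cleaves bound factor B, had 768 and 591 counts (log2FC -0.39, interval -0.54 to -0.23). Factor B and factor D transcripts thus stood at 3.20 and 114 TPM in sh-NC and at 77.2 and 85.1 TPM in shMBD2.

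CLU, an abundant chaperone that also inhibits the membrane pore, had 7082 counts in sh-NC and 4943 in shMBD2 (log2FC -0.53, interval -0.58 to -0.48). C4BPA, a subunit of the C4b-binding protein, had 65 and 115 counts (log2FC 0.81, interval 0.36 to 1.28), and VTN had 95 and 109 (log2FC 0.19, interval -0.22 to 0.60).

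Upstream of the proteases, the classical and lectin pathways were thinly covered. C1QA, C1QB and C1QC, which encode the recognition subunits that carry C1r and C1s, had no counts in either library. C4A had 17 counts in sh-NC and 5 in shMBD2 (log2FC -1.68, interval -3.57 to -0.28) and C4B had 1 in each. Reads of these near-identical copies cannot be told apart. MASP2, the protease of the lectin pathway, had 44 counts in each library, and COLEC11, a soluble lectin, had 9 and 25 (log2FC 1.42, interval 0.32 to 2.75). CFP, which encodes properdin, the stabilizer of the alternative convertase, had 3 and 15 counts (log2FC 2.14, interval 0.49 to 4.74).

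Among the receptors, C5AR1 had 54 counts in sh-NC and 59 in shMBD2, and C3AR1 had 1 and 2. The integrin chains that form the C3 fragment receptors were low, with 13 and 41 counts for ITGAX (log2FC 1.61, interval 0.72 to 2.67), 46 and 92 for ITGB2 (log2FC 0.98, interval 0.47 to 1.53) and 38 and 50 for ITGAM (log2FC 0.38, interval -0.25 to 1.04). CR1 and CR2 had no counts in either library.

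**Figure D2:**
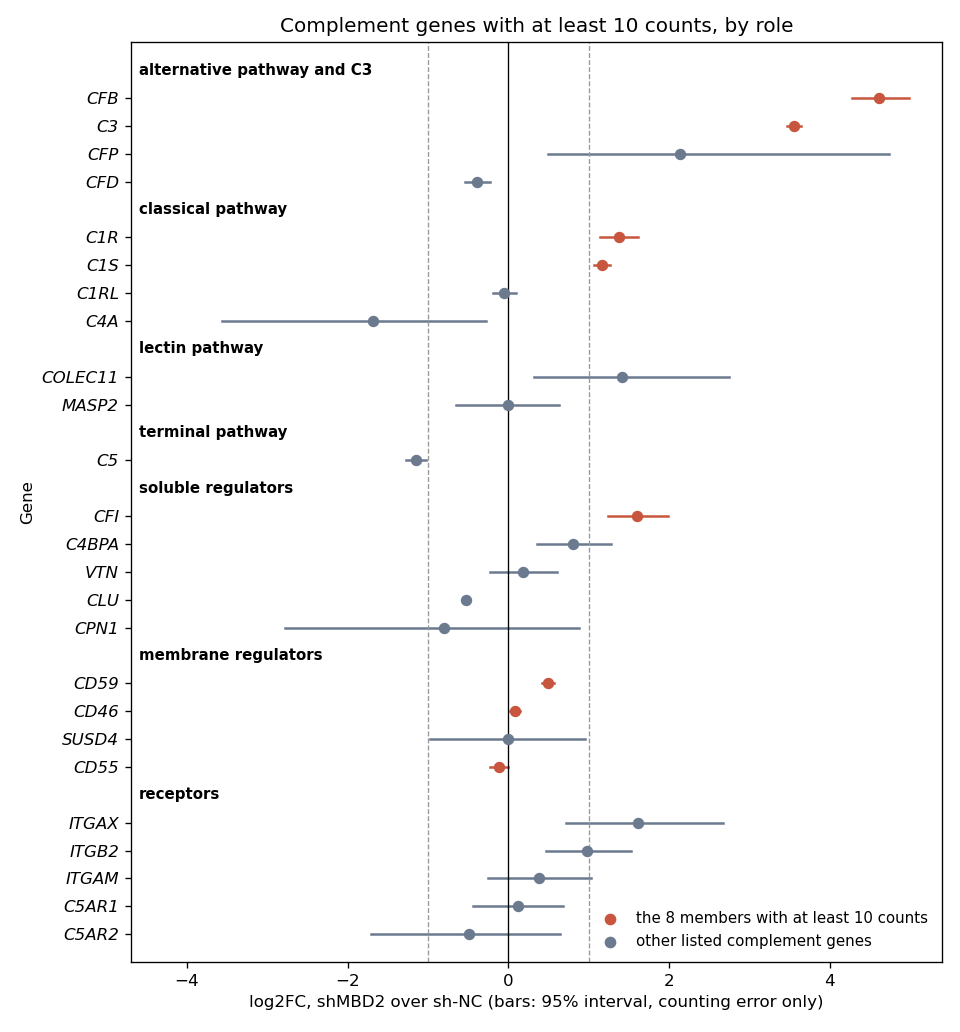
log2FC (shMBD2 over sh-NC) of the 25 complement genes with at least 10 counts, grouped by role, with 95% intervals of counting error as bars and dashed lines at -1 and 1. The 8 genes described in full are red. CFB at 4.61 and C3 at 3.55 lie to the right of all others. C5 at -1.15 and C4A at -1.68, the latter with a wide interval, lie left of the lower line.

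The genes next to the 9 were examined by start position among RefSeq protein-coding genes, which gave 16 neighbors outside the group, 12 of them with at least 10 counts. Of these 12, 1 was at least 2-fold higher and 0 at least 2-fold lower, counts near the shares of all genes (5.48% and 5.07%). The higher one was TNFSF14, a cytokine of the TNF family beside C3, with 9 counts in sh-NC and 74 in shMBD2 (log2FC 2.96, interval 2.03 to 4.22). GPR108, on the other side of C3, had 386 and 515 counts (log2FC 0.41, interval 0.21 to 0.60), and NELFE, beside CFB, had 719 and 726 (log2FC 0.01). UBE2L6, beside SERPING1, had 377 and 640 counts (log2FC 0.75, interval 0.57 to 0.94). PLA2G12A, beside CFI, was lower, with 373 and 269 counts (log2FC -0.48, interval -0.71 to -0.25). CD55 and CD46 lie in a cluster of complement regulators on chromosome 1 together with C4BPA, CR1 and CR2, whose values are given above.

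Markers of other cell types that make complement were examined in both libraries. Of 8 hepatocyte markers, APOA2, TTR and APOB had no counts in either library, and ALB had 0 in sh-NC and 3 in shMBD2. FGB, a fibrinogen chain, had 1569 and 473 counts, and no other marker of the 8 had more than 6. The summed level of the 8 was 143 TPM in sh-NC and 42.9 TPM in shMBD2. Of 8 leukocyte markers, CD3E, CD52 and CD68 had no counts in either library, and PTPRC and TYROBP had 1 in sh-NC and 0 in shMBD2. The summed level of these 8 was 12.7 TPM in sh-NC and 16.6 TPM in shMBD2, most of it CD14 with 126 and 152 counts, and LAPTM5 had 3 and 29. The 6 fibroblast markers summed to 3.98 and 8.42 TPM, of which COL1A1 had 124 and 308 counts and DCN 1 in each. The 4 endothelial markers had 1 count in sh-NC and 0 in shMBD2. The part of these markers in the differences of the complement genes was not tested, and a response to the loss of MBD2, to the shRNA sequence or to the culture cannot be told apart with 1 library per condition.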

How the data were processed

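Total RNA of TFK1 cells was sequenced, with 1 library for sh-NC and 1 for shMBD2. The authors deposited raw whole-number read counts per gene, and separately TPM, a signal per gene relative to its length and the library. Per the labels, the submitters' processing notes name fastp, HISAT2 2.1.0, featureCounts, DESeq 1.18.1 and GRCh38.p13. The annotation and the strandedness of counting are not given in the sources used here. The positions in the deposited tables equal those of GENCODE 29 (GRCh38) for 322 of 51111 genes matched by Ensembl identifier, so positions are given from GENCODE 29 instead, and overlaps are read in the tables' own coordinates. The tables name no build, and with so few equal positions their coordinates may not be on the GRCh38.p13 named in the notes.

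Of 63723 rows, 46 without a gene were dropped and repeats of a symbol with equal values were removed, leaving 56638 genes (17 rows for the 9 genes became 9). Library sizes were scaled with TMM (edgeR 4.0.16, R 4.3.3), and log2FC was computed with a prior of 0.5 counts for genes with at least 10 counts summed. The 95% intervals follow Clopper-Pearson, applied to how each gene's reads divide between the libraries, and ratios of 2 genes have exact conditional odds ratio intervals (scipy 1.17.1). Reads are not independent molecules, so both cover counting error only. The calculation was tested on simulated data. No test between conditions was possible with 1 library each. A fold of 2, and a second of 1.5, took its place. Alternatives were DESeq2 1.42.0 size factors, total counts, upper quartile, TPM plus 0.1 or 1, prior counts of 2 and 0.1, at least 1 or 100 counts, and all deposited rows. The named genes were the 9, MBD2, other listed complement genes with at least 10 counts, cell type markers and adjacent genes; genes with fewer counts were added once their values were known. Some complement genes of the list are not reported here. The 9 genes and all lists were chosen with earlier results of these data known.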

Additional observations from a re-analysis of the deposited data

How the results depend on the processing

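The log2FC of the 8 complement genes with at least 10 counts kept its sign under all 8 alternatives that could move it, 1 of which (all deposited rows) was added after seeing the data. The other count minimums leave it as it is by construction and were not tallied. Of 64 values, 63 lay inside the counting interval of the value reported, and CFB with log2 of TPM plus 1 did not, at 4.22. C3 ranged from 3.49 to 3.56, CFI from 1.44 to 1.61, C1R from 1.30 to 1.38, C1S from 1.13 to 1.17, CD59 from 0.46 to 0.51, CD46 from 0.06 to 0.09 and CD55 from -0.14 to -0.10. All 136 values of the other 17 complement genes lay inside their intervals, though C4A, CFP, COLEC11 and ITGAX fell inside 2-fold with TPM plus 1 (-0.43, 0.54, 0.90 and 0.76). The numbers of genes at least 2-fold higher and lower, 961 and 890, became 374 and 340 with TPM plus 1, 4523 and 4303 with at least 1 count, and 213 and 127 with at least 100 counts. With TPM plus 1 the ratios of low genes shrink by construction. The other changes follow from which genes are counted, by number and by depth. With at least 10 counts 5.48% of genes were at least 2-fold higher, and with at least 1000 counts 1.06%. Total counts in place of TMM shift every gene by 0.017 on the log2 scale. No paired analysis was possible because there is 1 library on each side. Depth limits SERPING1, CFP and C4A, and these libraries hold no measure of the spread between cultures.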
